A study of Mus musculus with 6 samples.

Results

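The 32 genes described here are a named set of the unfolded protein response and of the chaperones of the endoplasmic reticulum (ER). They were taken by name and sorted by role into ER lumen chaperones and cochaperones (9 genes), protein disulfide isomerases (3), lectin chaperones (2), ER-associated degradation and translocon genes (8), sensors and their transcription factors (4) and the ATF4 branch (6). All 32 were found among the 25273 genes with a value, and all 32 passed the filter on low values that left 10255 genes for testing. RNA sequencing had been done on basal epithelial cells of the mouse prostate, with 3 libraries of distal ducts, toward the gland tips, and 3 of proximal ducts, nearest the urethra. All libraries came from C57BL/6 mice of 8 to 12 weeks with no treatment named in the labels, and the comparison asks how the basal cells of these regions differ. The protocols describe dissociation, antibody staining and cell sorting, but do not give the gate for basal cells or what a replicate number stands for, so p-values cover only the spread among these libraries, and that spread may be technical.

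The unfolded protein response adjusts the folding capacity of the ER to the load of newly made secretory and membrane proteins. Unfolded protein is sensed by IRE1alpha (Ern1), which splices Xbp1 mRNA, by ATF6, which is cleaved to a transcription factor, and by PERK (Eif2ak3), which phosphorylates eIF2alpha and so favours translation of ATF4. ATF6 and spliced XBP1 raise chaperones, folding enzymes and the degradation machinery. ATF4 raises amino acid synthesis and transport and the factor CHOP (Ddit3), and it also answers stresses outside the ER.

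The classical promoter site of the first arm, the ER stress element, is CCAAT and CCACG separated by 9 bases, and it was looked for on both strands from 250 bases before to 50 bases after the RefSeq start of each gene (GRCm38.p6). The window was available for 28 of the 32 genes; Hyou1, Manf, Atf6 and Derl1 were not among the promoters used. The element was present in 0.119% of all 32851 promoters and in those of 9 of the 28 members. The sites are shown so that the values of genes that carry the same element can be read side by side. Each line runs 5′ to 3′ along the gene's own strand with the element in capitals; where it lies on the opposite strand, the capitals read as its reverse complement.
Hspa5 (chr2:34772020-34772048, + strand): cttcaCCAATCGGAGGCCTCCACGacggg
Hsp90b1 (chr10:86705633-86705661, - strand): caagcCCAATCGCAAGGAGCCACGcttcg
Hsp90b1, second site (chr10:86705528-86705556, - strand, element reversed): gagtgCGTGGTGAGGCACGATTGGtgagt
Creld2 (chr15:88819515-88819543, + strand, element reversed): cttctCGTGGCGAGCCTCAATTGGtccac
Dnajc3 (chr14:118937822-118937850, + strand): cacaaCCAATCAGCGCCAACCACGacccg
Pdia6 (chr12:17266486-17266514, + strand): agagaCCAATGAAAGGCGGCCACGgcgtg
Calr (chr8:84847070-84847098, - strand, element reversed): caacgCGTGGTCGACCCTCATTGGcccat
Canx (chr11:50325795-50325823, - strand): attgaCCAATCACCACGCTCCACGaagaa
Syvn1 (chr19:6046527-6046555, + strand): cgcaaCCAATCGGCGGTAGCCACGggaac
Derl3 (chr10:75893237-75893265, + strand, element reversed): tctacCGTGGGACTTCCCCATTGGctagc

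A second form, the ER stress element II (ATTGG and CCACG separated by 1 base), was in 0.0365% of promoters and in those of Herpud1 and Dnajb11. The C/EBP-ATF element bound by ATF4 dimers (TGATG and AA separated by 1 base) was in 3.97% of promoters and in those of Herpud1, Chac1, Asns and Trib3. CCACG alone, part of both ER stress elements, was in 32.8% of promoters and in those of 22 of the 28 members. Herpud1 is shown for its pair of different elements, and Chac1 and Asns for the ATF4 branch.
Herpud1, ER stress element II (chr8:94386372-94386392, + strand): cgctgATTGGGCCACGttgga
Herpud1, C/EBP-ATF element (chr8:94386312-94386329, + strand, element reversed): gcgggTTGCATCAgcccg
Chac1, C/EBP-ATF element (chr2:119351044-119351061, + strand, element reversed): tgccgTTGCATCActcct
Asns, C/EBP-ATF element (chr6:7693220-7693237, - strand): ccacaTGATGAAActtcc

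A match describes the letters of the window and is not evidence of binding. The 9 members with an ER stress element had log2 fold changes from -0.52 (Hspa5) to 0.14 (Derl3), with a median of -0.12, and 6 of them were negative. The 19 members in the promoter set without one had a median of -0.15, and 12 of them were negative.

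Over the whole set, 1 of 32 genes was higher in proximal cells and 0 were lower at an adjusted p under 0.05 (limma on log2(FPKM + 1), where FPKM is a fragment count divided by transcript length and library depth), and 31 did not pass. Among all 10255 genes tested, 4.52% were called higher and 2.5% lower. The called gene was Sel1l. At an unadjusted p under 0.05, 4 members were lower (Hspa5, Manf, Creld2 and Ddit3) and 1 higher, that is 12.5% and 3.12% of the set, beside 11.9% and 12.1% of all genes. The 3 proximal libraries lay wholly below the 3 distal ones for 5 members (Hspa5, Hyou1, Manf, Creld2 and Atf6) and wholly above for 2 (Sel1l and Chac1), or 15.6% and 6.25% of the set. Over all genes these shares were 13% below and 15.8% above, so the counts of lower members were near the background. The log2 fold changes, given throughout as proximal minus distal, had a median of -0.15 over the 32 members and of -0.01 over all genes, and 22 of the 32 were negative against 51.5% of all genes.

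**Figure D1:**
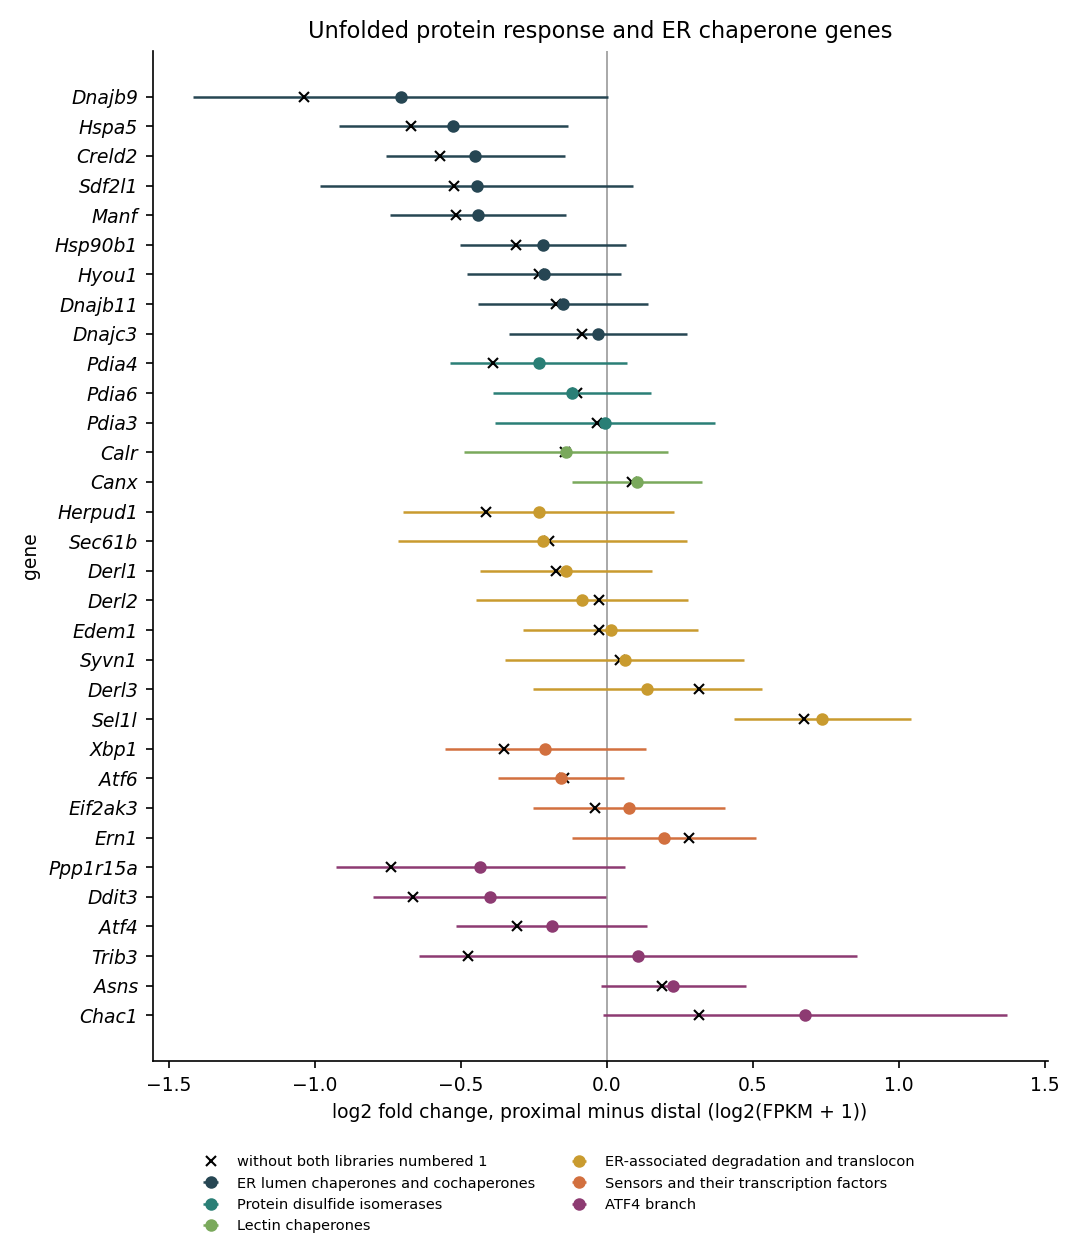
Log2 fold change of each of the 32 genes (x axis, proximal minus distal on log2(FPKM + 1)), with genes on the y axis grouped by role in colour; points and bars are the limma estimate and its 95% interval from 6 libraries, and crosses the estimate without both libraries numbered 1. Sel1l alone stands at 0.74 with an interval above 0 and an adjusted p of 0.0161, while all 9 ER lumen chaperones lie below 0 and the ATF4 branch runs from -0.43 to 0.68.

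A principal component of all tested genes, with 25.4% of the variance, set the library numbered 1 of each region apart from the others, and the first, with 47.2%, separated the regions. The calls at an adjusted p were therefore also made without these libraries, which leaves 2 against 2. As the choice came from these same data, the adjusted p without them describe a subset and are not a separate test. Without them, 9 members were lower (Hspa5, Dnajb9, Manf, Creld2, Pdia4, Herpud1, Ddit3, Trib3 and Ppp1r15a) and 1 was higher (Sel1l), or 28.1% and 3.12% of the set. Among all genes 12.9% were then lower and 8.59% higher. The median over the members became -0.17 and that of all genes -0.03.

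BiP (Hspa5), the HSP70-type chaperone of the ER lumen and the central regulator of the stress sensors, was the most abundant member. Its level was 1357, 1200 and 1447 FPKM in the distal libraries and 1153, 835 and 820 FPKM in the proximal ones. Each proximal library was below each distal one, and proximal 1 stood closest to the distal group. The log2 fold change was -0.52 ± 0.17 (SE, n = 3 and 3), with a 95% interval from -0.92 to -0.13, and the adjusted p of 0.107 did not pass. Without both libraries numbered 1 it was -0.67 with an adjusted p of 0.0177.

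The secreted or ER-retained proteins MANF, which binds BiP, and CRELD2, a folding factor of the ER, are among the genes most responsive to ER stress. Manf stood at 53.3, 46.8 and 59.8 FPKM in distal and at 43.5, 34.4 and 39.0 FPKM in proximal libraries. Creld2 stood at 27.3, 25.7 and 27.4 FPKM in distal and at 23.5, 17.6 and 17.5 FPKM in proximal libraries. For both genes the groups did not overlap and the highest proximal library was number 1. Their log2 fold changes were -0.44 ± 0.13 and -0.45 ± 0.13, with adjusted p of 0.0854 and 0.0852, neither under 0.05. Without both libraries numbered 1 they were -0.52 (adjusted p = 0.0496) and -0.57 (adjusted p = 0.0110).

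ERdj4 (Dnajb9) is a J-domain partner of BiP that attaches it to IRE1alpha and to misfolded proteins. Relative to the mean, Dnajb9 spread most among the 9 within the proximal group. Its distal values were 57.0, 48.3 and 48.6 FPKM, and its proximal values 55.1, 24.7 and 21.6 FPKM. Proximal 1 lay inside the distal range and the other two proximal libraries far below it. The log2 fold change was -0.71 ± 0.31 (adjusted p = 0.210), and without both libraries numbered 1 it was -1.04 ± 0.09 (adjusted p = 0.00319). Sdf2l1, which forms a complex with ERdj3, was at 21.9, 13.5 and 18.3 FPKM in distal and at 17.7, 10.6 and 10.7 FPKM in proximal libraries. These groups overlapped, and the log2 fold change of -0.44 had an interval from -0.98 to 0.09.

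The other ER lumen genes differed less. GRP94 (Hsp90b1), the HSP90 of the ER, averaged 202 ± 16 FPKM (SD, n = 3) in distal libraries against 174 ± 22 FPKM in the others, a log2 fold change of -0.22 with an interval from -0.50 to 0.07. Hyou1, a nucleotide exchange factor for BiP, was at 15.3, 14.3 and 18.0 FPKM against 13.3, 13.6 and 13.5 FPKM. Its groups did not overlap, but the adjusted p was 0.297. Dnajb11 (ERdj3) had a log2 fold change of -0.15 and Dnajc3 (p58IPK, a cochaperone that carries an ER stress element like that of Hspa5) one of -0.03, with an interval from -0.34 to 0.28. All 9 estimates of the group were negative, with a median of -0.44. Of the 9, 0 passed the test, beside 2.5% of all genes called lower. Without both libraries numbered 1, 4 of 9 passed as lower, beside 12.9% of all genes. In RNA from bulk samples, fewer cells of a type and less RNA per cell cannot be told apart.

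**Figure D2:**
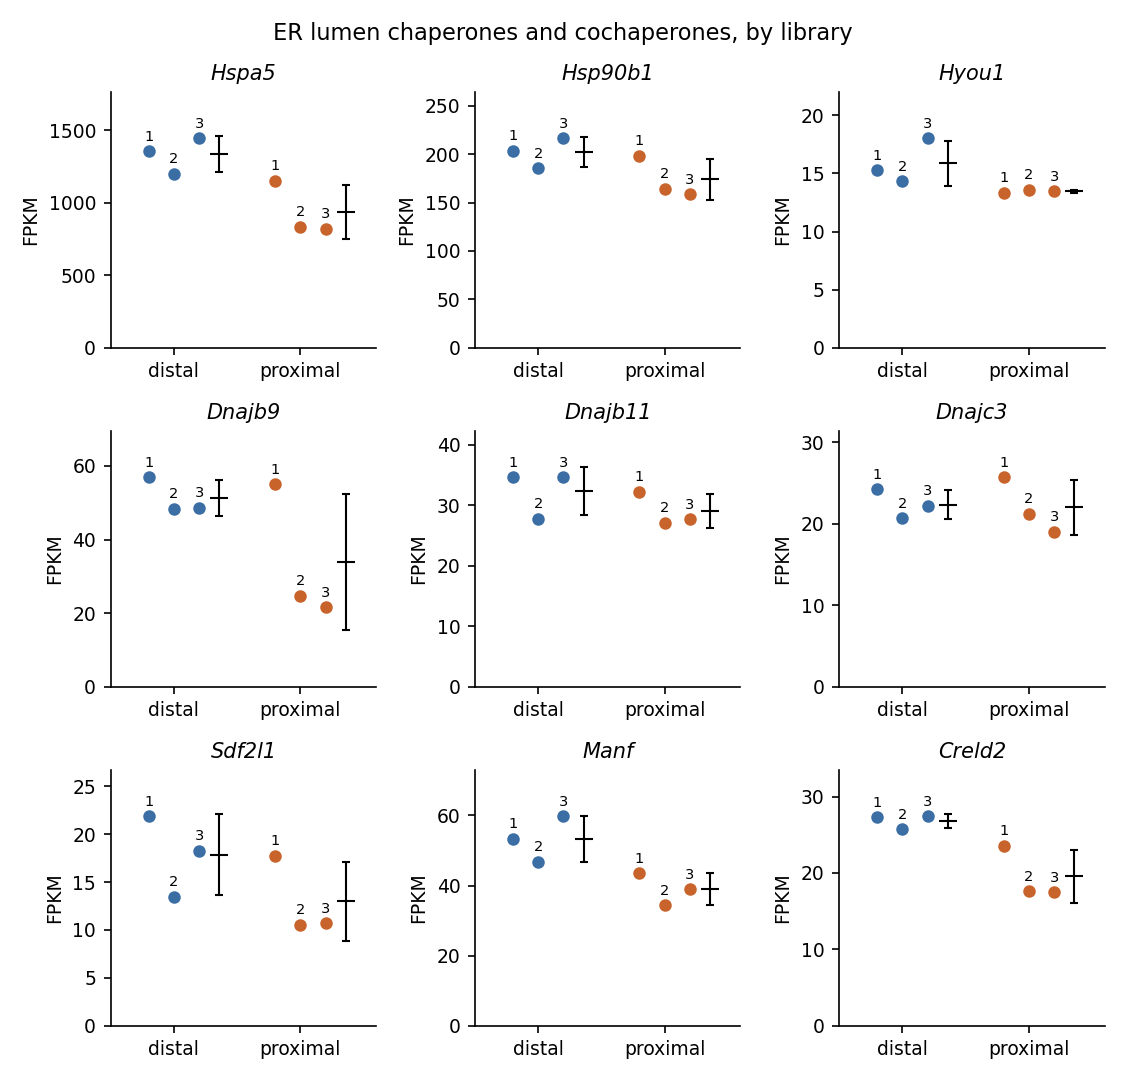
FPKM (y axis, from 0) of the 9 ER lumen chaperones and cochaperones in each library (x axis, distal in blue and proximal in orange, points numbered by replicate), with the mean and SD of 3 libraries in black. Proximal 1 lies above both other proximal libraries for 8 of the 9 genes, most clearly for Dnajb9 at 55.1 against 24.7 and 21.6 FPKM.

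The protein disulfide isomerases form and reshuffle disulfide bonds. Pdia3 (ERp57), which works with the lectin chaperones, stood at 192 ± 30 FPKM on the distal and 191 ± 33 FPKM on the proximal side, a log2 fold change of -0.01 with an interval from -0.38 to 0.37. Pdia6 had a log2 fold change of -0.12 with an interval from -0.39 to 0.15. Pdia4 (ERp72) was at 56.9, 57.9 and 64.9 FPKM against 60.3, 44.5 and 48.7 FPKM, so the groups overlapped through proximal 1. Its log2 fold change was -0.23 (adjusted p = 0.324), and -0.39 (adjusted p = 0.0405) without both libraries numbered 1.

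Calreticulin (Calr) and calnexin (Canx) bind monoglucosylated glycoproteins, the one in the lumen and the other in the membrane. Calr averaged 367 ± 55 FPKM (distal) and 333 ± 44 FPKM (proximal), and its log2 fold change was -0.14 with an interval from -0.49 to 0.21. Canx averaged 92.4 ± 0.5 and 99.4 ± 7.1 FPKM, with a log2 fold change of 0.10 and an interval from -0.12 to 0.33. Over the chaperone groups together, 13 of 14 genes had a negative estimate, with Canx the exception, and the median was -0.22.

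ER-associated degradation carries misfolded proteins back to the cytosol for the proteasome. Sel1l, the adaptor that holds the ubiquitin ligase HRD1 (Syvn1) and its substrate receptors together, was at 6.36, 8.07 and 7.46 FPKM in distal and at 12.4, 14.4 and 11.7 FPKM in proximal libraries. The groups were far apart, and the log2 fold change was 0.74 ± 0.13 with an interval from 0.44 to 1.04 and an adjusted p of 0.0161. The gene lies at chr12:91806043-91849157 on the minus strand (mm10), and its value is a sum over transcripts that behaved differently. The 2 long transcripts, of 6150 and 6300 bases, summed to 6.36, 8.07 and 7.46 FPKM in distal and 7.30, 8.60 and 7.04 FPKM in proximal libraries, and these groups overlapped. A short transcript of 1429 bases (chr12:91819981-91849157) had the value 0 in every distal library, against 5.13, 5.82 and 4.65 FPKM in proximal 1, 2 and 3. On average the long transcripts went from 7.30 to 7.65 FPKM and the short one from 0 to 5.20 FPKM.

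The short Sel1l transcript corresponds to one that GENCODE classes as a retained intron, which holds 12 exons of the 21 of the long form and has 61 bases outside the exons of that form. All its other bases are shared with the long form, so the split between them is an estimate by Cufflinks. About 171 to 176 fragments of each proximal library stood behind it, and in distal libraries the deposited upper bounds were at most 0.0707 FPKM. Over all its transcripts, Sel1l had about 838, 1347 and 1081 fragments in distal and 1248, 1326 and 1302 in proximal libraries. These totals, derived from the deposited intervals and not scaled for depth or length, overlapped between the groups. When only transcripts of at least 0.5 times the length of the longest of their gene were summed, an alternative added after the data were seen, Sel1l had a log2 fold change of 0.06 (adjusted p = 0.826) and 0 members were called. The call was also lost without distal 2 (adjusted p = 0.0501), distal 3 (0.0626) or proximal 2 (0.0878), with log2 fold changes of 0.66 to 0.81.

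**Figure D3:**
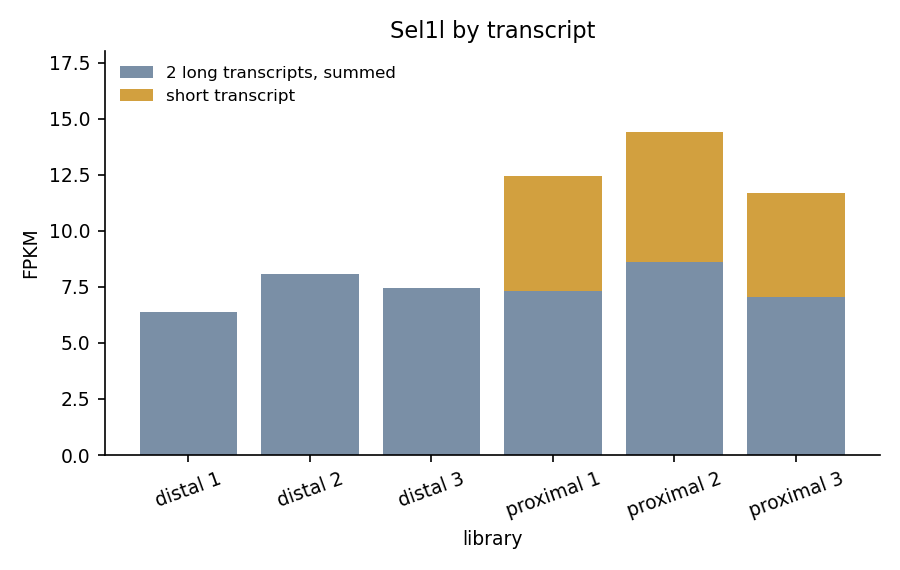
Sel1l in each library (x axis) as stacked bars of FPKM (y axis, from 0), with the 2 long transcripts summed in grey and the short transcript in yellow; there is no error bar, since each bar is 1 library. The long transcripts lie between 6.36 and 8.60 FPKM in all 6 libraries, and the short one is above 0 in the 3 proximal libraries alone, at 4.65 to 5.82 FPKM.

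The other members of the degradation group did not pass. Herpud1, which recruits the HRD1 complex and holds both an ER stress element II and a C/EBP-ATF element, was at 75.1, 62.5 and 69.9 FPKM in distal and at 82.2, 51.5 and 47.3 FPKM in proximal libraries. Proximal 1 was the highest of all and the other two proximal libraries the lowest, and the log2 fold change of -0.23 (adjusted p = 0.520) became -0.41 (adjusted p = 0.0331) without both libraries numbered 1. Syvn1 itself had a log2 fold change of 0.06, with an interval from -0.35 to 0.47. That gene value is a sum over transcripts, as split by Cufflinks. A transcript of 3103 bases was at 5.17, 5.98 and 3.40 FPKM in distal and 9.15, 8.04 and 8.14 FPKM in proximal libraries. A transcript of 3470 bases was at 12.4, 8.15 and 9.15 FPKM in distal and at most at 9.67 FPKM in proximal libraries. It overlapped between the groups and was lowest in proximal 3. These transcripts were not tested separately. Edem1, a lectin that directs glycoproteins to degradation, was at 18.1 ± 2.3 and 18.2 ± 1.7 FPKM, a log2 fold change of 0.01. The derlins, membrane proteins of the export channel, had values of -0.14 (Derl1), -0.08 (Derl2) and 0.14 (Derl3), and Sec61b, a subunit of the import channel, -0.22. Derl3 was the lowest member, with 1.94 ± 0.32 FPKM (distal) and 2.26 ± 0.57 FPKM (proximal), and Cufflinks placed its fragments on different transcripts in different libraries.

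Of the sensors, Ern1 was at 9.47, 10.2 and 10.3 FPKM in distal and at 9.64, 12.0 and 13.5 FPKM in proximal libraries, with overlap and a log2 fold change of 0.20 (adjusted p = 0.423). In proximal 3, 3.06 FPKM of this came from a transcript of 1917 bases that was at 0 in every other library, and 10.4 FPKM from a longer transcript. Eif2ak3 was at 4.60 ± 0.08 and 4.96 ± 0.92 FPKM, a log2 fold change of 0.08. Atf6 was at 18.3, 17.4 and 17.9 FPKM against 16.1, 16.1 and 15.6 FPKM. The Atf6 groups did not overlap, but the difference was small, at -0.16 with an interval from -0.37 to 0.06. Xbp1 was at 104, 94.8 and 106 FPKM against 109, 74.4 and 82.1 FPKM, with a log2 fold change of -0.21 (adjusted p = 0.433) and, without both libraries numbered 1, of -0.35 (adjusted p = 0.0514). IRE1alpha removes 26 bases from Xbp1 mRNA, and 0 pairs of its 3 listed transcripts differed by that length. Splicing of Xbp1, cleavage of ATF6 and phosphorylation by PERK were not measured here.

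Of the 6 genes of the ATF4 branch 0 passed the test, beside 4.52% of all genes called higher and 2.5% lower. The estimates of the 6 ran from -0.43 to 0.68. Atf4, which is regulated mainly at translation, was at 467, 435 and 459 FPKM in distal and at 483, 355 and 366 FPKM in proximal libraries, a log2 fold change of -0.19 with an interval from -0.52 to 0.14. Ddit3 (CHOP), a proapoptotic factor, was at 15.6, 24.8 and 20.9 FPKM against 17.1, 13.8 and 14.3 FPKM. Here distal 1 was the low library of its region, and the log2 fold change was -0.40 (adjusted p = 0.207), or -0.66 (adjusted p = 0.0147) without both libraries numbered 1. The end of Ddit3 overlaps Mars by 68 bases, and the strand of the reads is not stated.

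Ppp1r15a (GADD34), the phosphatase subunit that reverses eIF2alpha phosphorylation, was at 108, 186 and 198 FPKM in distal and at 123, 114 and 115 FPKM in proximal libraries. Distal 1 was the lowest of all 6 libraries, while distal 2 and 3 were the highest. The log2 fold change was -0.43 (adjusted p = 0.263), and -0.74 (adjusted p = 0.00448) without both libraries numbered 1. Trib3, a pseudokinase that restrains ATF4 and CHOP, was at 5.63, 14.7 and 12.8 FPKM against 15.0, 10.2 and 9.03 FPKM. The libraries numbered 1 were the lowest and the highest of all, so its estimate turned from 0.11 (adjusted p = 0.880) to -0.47 (adjusted p = 0.0405) without them.

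Chac1, which degrades glutathione and is among the genes most responsive to ATF4, had the highest estimate of the branch. It was at 10.5, 10.0 and 10.4 FPKM in distal and at 29.3, 15.7 and 10.7 FPKM in proximal libraries. Each proximal library was above each distal one, but proximal 3 by little, and the log2 fold change of 0.68 had an interval from -0.01 to 1.37 (adjusted p = 0.215). Without both libraries numbered 1 it was 0.32 (adjusted p = 0.252). Asns, asparagine synthetase, was at 70.3, 69.4 and 75.8 FPKM against 87.1, 75.3 and 91.0 FPKM, with overlap and a log2 fold change of 0.23 (adjusted p = 0.240). Of the 6 genes, 3 had a positive and 3 a negative estimate, with a median of -0.04. Without both libraries numbered 1 the median was -0.39, and 3 of the 6 were lower, beside 12.9% of all genes.

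**Figure D4:**
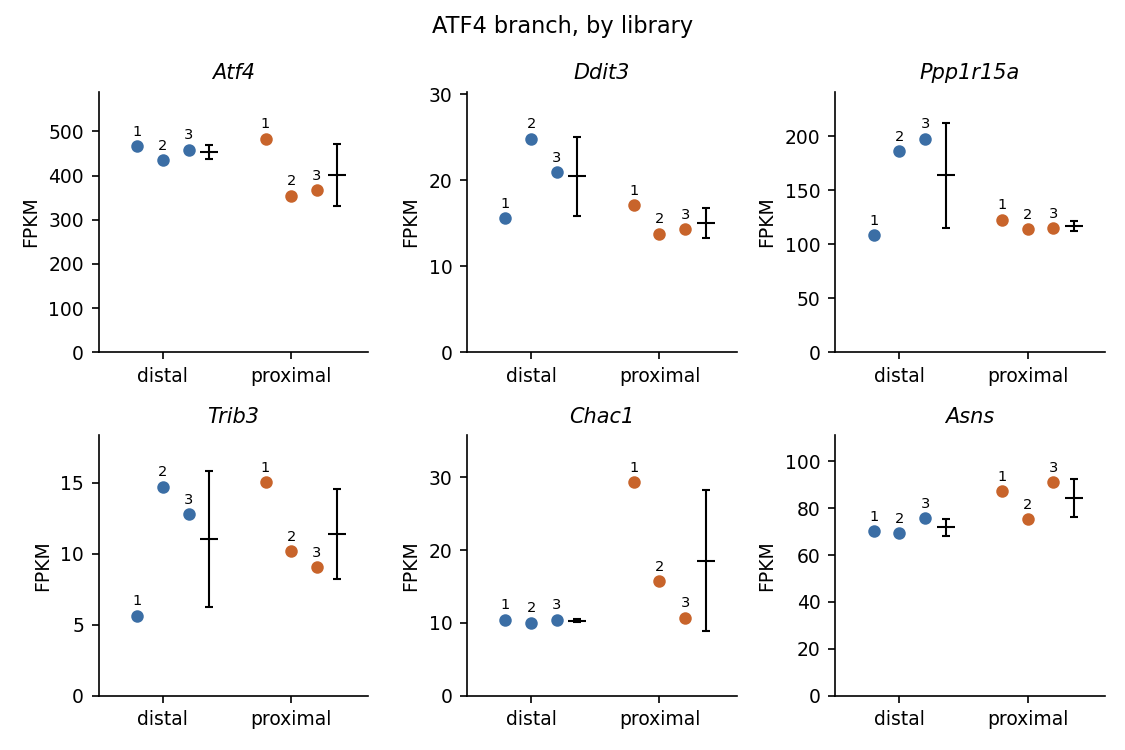
FPKM (y axis, from 0) of the 6 genes of the ATF4 branch in each library (x axis, distal in blue and proximal in orange, points numbered by replicate), with the mean and SD of 3 libraries in black. Distal 1 is the lowest distal library for Ddit3, Ppp1r15a and Trib3, and proximal 1 the highest proximal library for all but Asns, with Chac1 at 29.3 FPKM.

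Other genes of these pathways were taken from lists of known members. Of 12 aminoacyl-tRNA synthetases of the ATF4 response, which charge tRNAs with amino acids, 3 were higher in proximal cells. Of the others, 0 were lower and 9 did not pass. Over all genes, 4.52% were called higher and 2.5% lower. All 12 estimates were positive, with a median of 0.36 against -0.01 for all genes. Gars, the glycyl-tRNA synthetase, was at 80.2, 67.7 and 67.0 FPKM in distal and at 116, 108 and 97.3 FPKM in proximal libraries, with a log2 fold change of 0.57 (adjusted p = 0.0266). Lars and Eprs rose by 0.56 and 0.45 on the log2 scale. Of 29 other tested ATF4 and amino acid response genes, 4 passed as higher and 0 as lower, which leaves 25, with a median of 0.22. Mthfd2, a mitochondrial folate enzyme, was at 52.7, 48.8 and 51.6 FPKM against 77.2, 71.4 and 72.7 FPKM (adjusted p = 0.0154). Slc1a4, a neutral amino acid transporter, and Vldlr, a lipoprotein receptor, rose by 0.88 and 0.81 on the log2 scale. Nupr1, a stress-induced chromatin protein also used as a marker of proximal luminal progenitors, rose from 4.30 to 46.4 FPKM on average. Without both libraries numbered 1, 6 of these 29 genes were higher and 6 lower, while 9 of the 12 synthetases were higher and 0 lower. Over all genes 8.59% were then higher and 12.9% lower.

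The rest of the ER machinery showed 1 call, while 4.52% of all genes were called higher and 2.5% lower. Of 24 other tested ER folding enzymes, 18 other degradation genes, 25 genes of the translocon, signal peptidase and oligosaccharyltransferase, and 16 other sensors and regulators, 0 passed in either direction. Their medians were 0.00, 0.11, 0.04 and 0.06. Without both libraries numbered 1, 2 of these folding enzymes and 1 of these degradation genes were lower, beside 12.9% of all genes. P4hb (PDI, the founding disulfide isomerase) averaged 277 FPKM (distal) and 221 FPKM (proximal), without passing (adjusted p = 0.163). Of 17 genes of ER to Golgi transport, Sec24d, a cargo adaptor of the COPII coat, rose by 0.42 on the log2 scale (adjusted p = 0.0455), and 16 did not pass.

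Stress genes outside the ER differed between the same libraries. Of 16 tested immediate early genes, which tissue dissociation is known to induce, 3 were lower in proximal cells (Ier2, Junb and Egr2) and all 16 estimates were negative, with a median of -0.79. Of 17 cytosolic and mitochondrial heat shock genes, Hspa8 was lower and Cryab higher, with a median of -0.41. Among all genes, 2.5% were called lower and 4.52% higher. Per library, the mean deviation of the immediate early genes from their 6-library mean on log2(FPKM + 1) was -0.07, 0.59 and 0.59 in distal and -0.46, -0.35 and -0.30 in proximal libraries. For the ER lumen chaperones it was 0.25, 0.02 and 0.25 against 0.11, -0.31 and -0.33, and for the ATF4 branch -0.27, 0.14 and 0.13 against 0.28, -0.12 and -0.17. Distal 1 was thus the low distal library for the immediate early genes and the ATF4 branch but not for the ER lumen chaperones, and proximal 1 was the high proximal library for the latter groups but not for the first. Without both libraries numbered 1, when 12.9% of all genes were lower, 14 of 16 immediate early and 11 of 17 heat shock genes were lower. The part of these genes in the results for the members was not tested.

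**Figure D5:**
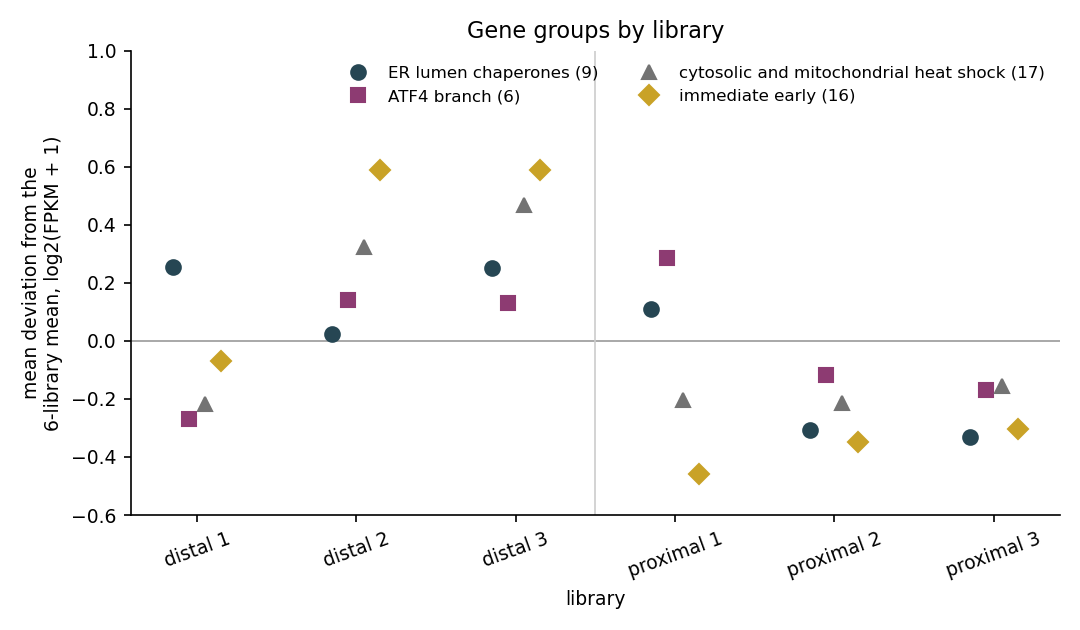
Mean deviation of 4 gene groups from their 6-library mean (y axis, log2(FPKM + 1)) in each library (x axis); each symbol is the mean over the genes tested, their number in the legend, with no error bar. ER lumen chaperones are at 0.25 in distal 1 and -0.33 in proximal 3, whereas immediate early genes are at -0.07 and -0.30 there.

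The basal keratins were high in every library, with Krt14 at 2121 to 3397 FPKM and Krt5 at 340 to 674 FPKM, and 4 of 8 basal markers (Krt5, Krt15, Lamb3 and Col17a1) were higher in proximal cells. Trp63, the defining transcription factor of basal cells, averaged 58.5 FPKM (distal) and 34.2 FPKM (proximal), a log2 fold change of -0.70 that did not pass (adjusted p = 0.170), and passed as lower without both libraries numbered 1 (-0.90, adjusted p = 0.00505). Krt14 had a log2 fold change of -0.29 (adjusted p = 0.366). Beside the basal count and the marker counts below, 4.52% of all genes were called higher and 2.5% lower. Markers of other cells also differed between the regions. Of the luminal markers 3 of 9 were higher and 2 lower, with a summed level of 3442 to 5618 FPKM in distal and 3973 to 5283 FPKM in proximal libraries, or 2020 to 2736 against 2862 to 3077 FPKM without Cldn4, the most abundant. For proximal luminal progenitors 6 of 8 were higher, with sums of 957 to 1024 against 1817 to 2076 FPKM. For prostate secretory cells, which have a high load of secreted protein, 1 of 9 was higher (Msmb) and 1 lower (Defb50). Of the 9 estimates 7 were positive. Their median of 1.21 was the estimate of Spinkl, which was above 0 in proximal 2 alone, at 11.4 FPKM. The sums of these markers were 1695 to 2243 against 1070 to 1401 FPKM, but 494 to 631 against 626 to 1116 FPKM without Defb50, the most abundant. Svs5 was at 107 and 239 FPKM in proximal 2 and 3 and at most at 0.860 FPKM elsewhere. Svs2, at 4.16 and 191 FPKM, and Pate4, at 6.24 and 46.4 FPKM, were likewise high in proximal 2 and 3 alone. These genes are part of the sums and of the 7 positive estimates. Svs2, Svs5 and Pate4 are also secretory genes of the seminal vesicle, so they do not mark prostate cells alone. Their source in these libraries was not tested. For endothelium 4 of 6 were higher, with sums of 5.64 to 14.9 against 21.5 to 28.9 FPKM, and for fibroblasts 4 of 7, with 6 of 7 estimates positive. The fibroblast sums were 779 to 819 against 695 to 766 FPKM, but 29.5 to 41.4 against 54.8 to 58.4 FPKM without Dcn, the most abundant. For smooth muscle 0 of 6 passed, with sums of 68.4 to 74.6 against 55.5 to 101 FPKM, and for leukocytes 0 of 2, with sums of 4.97 to 10.3 against 6.93 to 9.52 FPKM and Ptprc at most at 0.0436 FPKM. Only 4 of 8 markers of plasma cells, a type rich in these chaperones, were matched, without most immunoglobulin genes, and these summed to at most 0.173 FPKM. Neuroendocrine markers summed to at most 1.18 FPKM. The part of these cells in the results for the members was not tested.

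From the width of the deposited intervals, depth was 20900000 to 26700000 fragments a library, and 9741 to 9954 of the tested genes reached 1 FPKM in each.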

How the data were processed

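Total RNA of 6 libraries, 3 distal and 3 proximal, was reverse transcribed with random and oligo(dT) primers and run on an Illumina HiSeq, as the labels' protocols state. The tools were bcl2fastq 1.8.3, TopHat and Cufflinks, with build mm10, per the submitters' processing notes. The authors deposited FPKM with an interval for 63241 transcripts a library, without gene names, per the file headers. Which annotation they used is not given in the sources here.

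Transcripts were matched to GENCODE M21 (GRCm38, the assembly of mm10) by span and spliced length, which placed 53323 of them with 93.9% of the FPKM. In a test on 2000 reference transcripts, 90.8% were assigned, 99.8% of those to the right gene. An expressed transcript left unmatched lowers the value of its gene, as for Tmed10, Eif2ak1 and Nck1 among the lists, while all members had values above 0. FPKM was summed per gene and used as deposited. Genes averaging 1 FPKM or more were tested on log2(FPKM + 1), which understates changes of low genes, with limma 3.58.1 (R 4.3.3; lmFit and eBayes with a variance trend, two-sided, no covariate, Benjamini-Hochberg over all 10255 genes, called under 0.05). Standard errors, 95% intervals and adjusted p come from that fit. Depth was derived from the deposited intervals; the values are not counts.

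All 32 members are named. Of each other list, up to 4 genes with the smallest p were eligible for naming, and markers as needed. The members and lists were chosen with earlier results of these data known. Promoters came from RefSeq (GRCm38.p6), 250 bases before to 50 after the start, with 5 bases printed beside each element. GENCODE places the start of Hspa5 and Asns further upstream. Alternatives covered the pseudocount, the filter, the scaling, the variance model, the matching, a replicate block and the libraries used.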

Additional observations from a re-analysis of the deposited data

How the results depend on the processing

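With no filter on low values, 137 genes in all were lower, and with a mean of at least 5 FPKM 273 were higher and 168 lower, beside 464 and 256. That filter left 3 sensor genes, with a median of -0.16. Quantile normalization called 1 member lower (Creld2, adjusted p = 0.0493). Replicate numbers are shared by the groups, but the correlations of deviations of same-numbered libraries were 0.38, 0.04 and 0.29, and distal 2 correlated best with proximal 3 (0.13), so the numbers were not taken to pair the libraries. With the replicate block, 880 genes were higher and 732 lower, and 4 members were lower (Hspa5, Sdf2l1, Manf and Creld2), with Sel1l still higher. Leaving out each library in turn gave 192 to 550 genes higher and 45 to 614 lower, with 0 to 1 members higher and 0 to 4 lower. The members called lower were Ddit3 and Ppp1r15a without distal 1, and Hspa5, Dnajb9, Creld2 and Herpud1 without proximal 1. Without the 2 libraries numbered 1, the counts over all genes were 881 higher and 1328 lower, with 9 members lower, the ATF4 branch at a median of -0.39 and Trib3 reversed to -0.47. Without the shorter transcripts, 0 members were higher and Sel1l was at 0.06, since its short form is left out. For the other changes the cause was not tested. The pseudocount, median-ratio scaling, the variance trend and the restriction to close matches changed no call among the members.

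The number of libraries, 3 a group, limits the precision. The lowest member, Derl3, rested on 56.5 to 82.3 implied fragments a library.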
